A study of Mus musculus with 20 samples.

Results

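The genes described here encode 4 families of enzymes that handle drugs, toxins and lipids in the gut wall. The families are the UDP-glucuronosyltransferases (Ugt), the glutathione transferases (Gst), the sulfotransferases (Sult) and the carboxylesterases (Ces). Their genes were measured by bulk RNA sequencing of the terminal ileum of mice. Members were all genes whose symbol starts with Ugt, Sult or Ces and a digit, or with Gst and a lower-case letter, and that had at least 10 estimated counts in at least 5 of the 20 libraries. Of 35204 genes in the table, 94 carried such a symbol and 60 met the minimum: 14 of 22 Ugt genes, 22 of 25 Gst genes, 8 of 27 Sult genes and 16 of 20 Ces genes. Of the 34 left out, 30 did not reach 10 counts in any library. Just inside the minimum were Ugt1a2, which reached 10 counts in 6 libraries, and Ces3b and Gsto2, which reached it in 8. Just outside were Ugt8a, with 3 libraries, and Ugt1a8, with 2. The minimum was met in all 20 libraries by 50 members and by no member through a single group.

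All 20 mice were females of the C57Bl6 strain, 7 weeks old, with no genetic alteration named, and 5 mice made up each of 4 groups. All were fed a purified amino acid diet for 3 weeks, either the control diet with tryptophan (CD) or the same diet without it (TDD, Trp-deficient diet). The mice of the CD and TDD groups were specific pathogen free (SPF) and kept their microbiota, and those of the CD+ABX and TDD+ABX groups also drank an antibiotic cocktail (ABX) of ampicillin, vancomycin, gentamycin, Metronidizole (metronidazole) and neomycin with sucrose. Each library came from a short piece of whole ileal wall taken close to the caecum, so it holds RNA of every cell type there, and fewer cells of a type cannot be told apart from less RNA per cell. Whether SPF mice drank sucrose is not given in the sources used here, so its share in the ABX comparisons cannot be told apart.

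As background, 3 of these families join a small polar group to a foreign or waste molecule so that it can be excreted. Ugt enzymes of the endoplasmic reticulum add glucuronic acid, Gst enzymes add glutathione to reactive compounds, and Sult enzymes add sulfate. Carboxylesterases cut ester and amide bonds of drugs and lipids, and Ces2 enzymes are the main ones of the rodent small intestine while Ces1 enzymes are best known from the liver. Several of these genes are known to be switched by receptors that sense foreign compounds, among them the aryl hydrocarbon receptor, which also binds products of tryptophan.

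The promoters of 6 members are printed because these genes carried the changes with diet or antibiotics described further on and stand for each direction. They run from 250 bases before to 50 bases after the RefSeq start, 5′ to 3′ on the gene's own strand, in build GRCm38.p6. Capitals mark letters of a searched motif on either strand: GCGTG, the core bound by the aryl hydrocarbon receptor, TGACNNNGC, bound by the stress factor Nrf2, AGTTCA, a site used by nuclear receptors, and GTTAAT, bound by the hepatocyte nuclear factor 1 proteins.
Ces1e, chr8:93229570-93229869, minus strand: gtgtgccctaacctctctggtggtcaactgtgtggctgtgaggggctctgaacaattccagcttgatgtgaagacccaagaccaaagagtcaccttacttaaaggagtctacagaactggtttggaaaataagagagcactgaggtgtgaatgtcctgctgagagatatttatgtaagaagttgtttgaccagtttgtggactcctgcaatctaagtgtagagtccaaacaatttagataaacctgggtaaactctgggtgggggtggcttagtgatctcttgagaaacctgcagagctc
Ces1g, chr8:93337160-93337459, minus strand: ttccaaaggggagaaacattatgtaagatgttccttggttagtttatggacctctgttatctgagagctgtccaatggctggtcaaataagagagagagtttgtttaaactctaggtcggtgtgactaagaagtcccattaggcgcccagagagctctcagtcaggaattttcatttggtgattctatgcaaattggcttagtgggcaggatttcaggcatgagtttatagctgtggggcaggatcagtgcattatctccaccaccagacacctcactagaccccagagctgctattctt
Gsta3, chr1:21240335-21240634, plus strand: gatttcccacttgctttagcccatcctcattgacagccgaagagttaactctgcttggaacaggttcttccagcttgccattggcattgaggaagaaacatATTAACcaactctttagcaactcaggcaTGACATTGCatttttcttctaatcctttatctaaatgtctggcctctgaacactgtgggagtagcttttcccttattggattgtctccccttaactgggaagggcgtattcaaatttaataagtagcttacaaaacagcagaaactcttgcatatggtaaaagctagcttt
Gsta2, chr9:78347096-78347395, minus strand: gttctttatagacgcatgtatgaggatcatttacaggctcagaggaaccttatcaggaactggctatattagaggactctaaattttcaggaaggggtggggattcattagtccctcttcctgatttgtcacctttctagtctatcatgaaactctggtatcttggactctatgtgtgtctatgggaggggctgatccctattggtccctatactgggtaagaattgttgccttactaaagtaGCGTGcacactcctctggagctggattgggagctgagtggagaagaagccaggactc
Ces2a, chr8:104733753-104734052, plus strand: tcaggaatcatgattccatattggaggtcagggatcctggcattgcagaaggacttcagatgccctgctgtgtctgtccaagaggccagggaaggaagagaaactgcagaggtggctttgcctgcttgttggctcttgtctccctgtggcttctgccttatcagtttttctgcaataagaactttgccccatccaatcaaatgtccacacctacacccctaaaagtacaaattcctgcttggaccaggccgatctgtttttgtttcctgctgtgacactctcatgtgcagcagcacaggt
Gstp1, chr19:4037863-4038162, minus strand: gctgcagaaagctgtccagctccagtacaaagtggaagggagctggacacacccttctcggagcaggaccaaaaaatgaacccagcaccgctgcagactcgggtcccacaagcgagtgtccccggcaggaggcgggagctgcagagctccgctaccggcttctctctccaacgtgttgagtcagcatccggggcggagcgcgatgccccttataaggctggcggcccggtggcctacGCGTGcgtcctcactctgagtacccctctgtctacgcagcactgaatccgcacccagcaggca
Gsta3 held a TGACATTGC starting 121 bases before its start and an ATTAAC, the reverse complement of GTTAAT, 149 bases before it. GCGTG lay 7 bases before the start of Gsta2 and 13 bases before that of Gstp1. The windows of Ces1e, Ces1g and Ces2a held none of these letters. Over all 63 windows found for 51 of the members, 20.6% held GCGTG, against 32.4% of 32851 promoters of the same length, and 4.76% held TGACNNNGC, against 12.4%. AGTTCA was found in 12.7% against 14.0%, and GTTAAT in 14.3% against 7.1%. A match is only a match of letters, and no matches overlapped in the printed windows.

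A few genes made most of each family's transcripts. Levels between genes are compared in TPM, a unit that allows for transcript length as well as library size. The highest was Ces2e, an intestinal carboxylesterase, with a mean of 768 TPM over the 20 mice, 66.9% of all Ces transcripts and 19.8% of those of all members. Gsto1, an omega-class transferase, had 463 TPM (35.0% of Gst), Sult1b1, a thyroid hormone and phenol sulfotransferase, 437 TPM (53.4% of Sult) and Ugt2b34 315 TPM (53.3% of Ugt). These leading genes differed less between mice than some genes of low level, but Ces2e did not overlap between TDD and either ABX group. In TPM, Ces2e lay at 575 to 881 in CD, 606 to 707 in TDD, 737 to 951 in CD+ABX and 781 to 899 in TDD+ABX. Gsto1 differed only 1.34-fold between its highest and lowest mouse of the 20, and Ugt2b34 1.7-fold. At the other end, Sult6b2 differed 31.8-fold, Ces1f 20.2-fold and Ces1g 19.6-fold between highest and lowest mouse, at mean levels far below those of the leading genes.

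**Figure D1:**
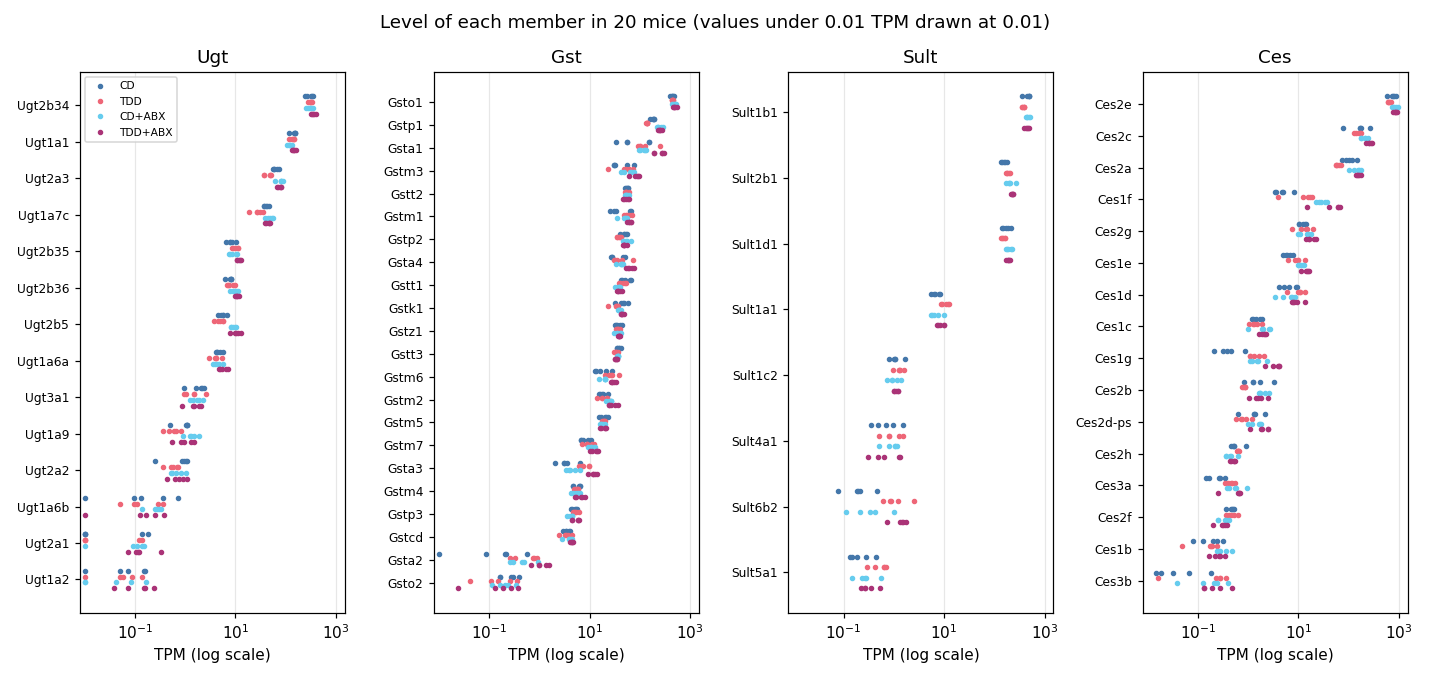
Levels of all 60 members in TPM (log axis, values under 0.01 drawn at 0.01), 1 panel a family, with 1 point a mouse coloured by group and genes ordered by mean level. Ces2e, Gsto1, Sult1b1 and Ugt2b34 head their families, and on this log axis the mice of the 4 groups lie close together in each of them.

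Behind these genes came others of high level in each family. Ugt1a1, the enzyme that conjugates bilirubin, had a mean of 137 TPM, Sult2b1, a sterol sulfotransferase, 194 TPM, Sult1d1 177 TPM, the pi-class Gstp1 204 TPM, the alpha-class Gsta1 145 TPM, Ces2c 198 TPM and Ces2a 117 TPM. Summed over all members, the level was 3627 ± 443 TPM in CD (SD, n = 5 in every group), 3388 ± 157 in TDD, 4049 ± 280 in CD+ABX and 4468 ± 245 in TDD+ABX. Nearby genes can share sequence, so counts could be split wrongly among them. Of the 60 members, 30 had at least 90% of their 31-base words to themselves, 16 had 50 to 90% and 14 under 50%. Among the members whose changes are described, the lowest shares were 7.14% for Gsta1, which shared 80.3% of its words with the gene Gm3776, 13% for Ces2d-ps, 18.7% for Ugt1a1, 39.3% for Gsta2, 43.6% for Ugt2b5, 44.3% for Ugt1a7c and 47.0% for Ugt1a6a, and their values are uncertain to that degree. Ces1e and Ces1g had 91.9% and 93.8% to themselves.

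The libraries held 36676963 to 58662617 counts, and the median correlation of each with the other libraries of its group was 0.977 to 0.989. Expression of single genes is given below in CPM, counts scaled to library size, for mice 1 to 5 of a group in turn. The distal ileum markers Slc10a2, Fabp6 and Fgf15 were detected in every group, with summed levels of 46.5 to 98.7 CPM in CD, 11.6 to 22.8 in TDD, 51.6 to 247 in CD+ABX and 33.9 to 172 in TDD+ABX. Fabp6 was low in SPF mice, at 0.319 to 2.42 CPM in CD and 0.238 to 3.91 in TDD. Slc10a2 was low there as well, at 1.38 to 3.89 CPM in CD and 3.69 to 8.8 in TDD. Fgf15 was at 44.7 to 92.9 CPM in CD and 4.32 to 13.5 in TDD. The proximal small intestine markers Gata4, Fabp1, Cyp2b10 and Slc40a1 had higher sums, of 503 to 1911, 866 to 1683, 541 to 957 and 653 to 1001 CPM in the same order of groups. Summed levels of 7 enterocyte markers were 15678 to 37582 CPM in CD, with the lowest in mouse 2, 29651 to 37898 in TDD, 22066 to 34937 in CD+ABX and 28331 to 30761 in TDD+ABX. Those of 4 smooth muscle markers were 366 to 2013, 521 to 1624, 773 to 1662 and 481 to 1638 CPM, with the highest in CD mouse 2. Those of 3 acinar pancreas markers were 65.4 CPM in CD mouse 5 and 2.93 to 4.71 CPM in the other 19. Alb, the defining marker of hepatocytes, stood at 10.9 to 14.9 CPM in TDD mice 4 and 5 and CD+ABX mice 1 and 2 and at no more than 0.168 CPM in the other 16. Of the further hepatocyte markers, Apob did not set these 4 apart, while Ttr was higher in each of them than in any of the other 16. Apob was at 2375 to 3388 CPM in them, within the 1605 to 4718 of the other 16. Ttr was at 3.26 to 4.62 CPM in them and 1.77 to 3.20 in the other 16. The results were therefore also computed without these 4 libraries, and calls that were lost are given beside the result.

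The first comparison was that of TDD with CD in SPF mice, which asks what loss of dietary tryptophan does when the microbiota is present. Of the 60 members, 56 had enough signal for the test (at least 0.5 CPM in 1 library), and Ces3b, Gsto2, Ugt1a2 and Ugt3a1 had not. By edgeR's quasi-likelihood test, with p adjusted over 16306 genes by the Benjamini-Hochberg method, 9 members were higher and 6 lower in TDD at q under 0.05, with q the adjusted p. Over all genes tested, 6.65% were higher and 7.71% lower. Of the 15, Sult6b2, Ces1g, Gsta2, Ces1f and Gsta3 changed at least 2-fold, all upward, against 1.83% of all genes past both limits in either direction. Without the 4 libraries with Alb, 5 members were higher and 2 lower, and 3 passed both limits. Without CD mouse 2, which had the lowest enterocyte and the highest smooth muscle marker sums of the 20 mice, 9 were higher and 10 lower, and without CD mouse 5 these were 6 and 4. The median log2 fold change of the members was 0.06, against 0.01 over all genes. The 5 values of TDD and of CD did not overlap for 4 members that were higher and 2 that were lower, against 9.58% of all genes. The members are chosen by symbol and level, with earlier results of these data known, so these counts describe them and test nothing.

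Ces1 genes lie together on chromosome 8 on the minus strand, from Ces1b at 93056728 to Ces1g at 93337308 (GRCm38), and 6 were tested, of which 3 rose in TDD and none fell. Ces1g encodes a lipid and drug esterase best known from liver and gut. Its expression was 1.49, 0.628, 0.798, 0.574 and 0.379 CPM in CD and 2.03, 2.38, 3.73, 2.04 and 2.97 in TDD. Every TDD mouse lay above every CD mouse, a 3.44-fold difference (log2 1.78 ± 0.31, SE, q = 0.000844). Ces1f, a further lipid esterase of this cluster, stood at 5.18, 8.63, 3.91, 4.43 and 6.44 CPM in CD and 4.39, 15.4, 22.4, 21.2 and 18.6 in TDD. TDD mouse 1 stayed within the CD range while the other 4 were above it, and the difference was 2.87-fold (log2 1.52 ± 0.40, q = 0.0151). Without the 4 libraries with Alb it was 1.30 on the log2 scale with q = 0.129. For Ces1e the values were 8.43, 7.31, 5.67, 6.97 and 7.03 CPM in CD and 8.31, 11.5, 16.5, 11.0 and 12.7 in TDD. Again only TDD mouse 1 fell inside the CD range, and the difference was 1.70-fold (log2 0.77 ± 0.15, q = 0.00235). The other members of the cluster did not pass: Ces1d differed by 0.56 ± 0.28 (q = 0.194), Ces1b by −0.14 ± 0.38 and Ces1c by −0.04 ± 0.22. Summed over the cluster, expression was 20.1 to 31.6 CPM in CD and 35.3 to 59 in TDD.

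Ces2 genes form another cluster further along chromosome 8 on the plus strand. Of 8 tested, 2 fell in TDD, none rose and 6 did not pass. Ces2a, an esterase of the intestine and liver that hydrolyses drugs and neutral lipids, was at 137, 96.2, 191, 168 and 125 CPM in CD and 107, 79.9, 78.9, 82.8 and 92.0 in TDD. The groups overlapped through TDD mouse 1 and CD mouse 2, and expression was 1.63-fold lower (log2 −0.70 ± 0.16, q = 0.00693). Ces2b gave 3.22, 2, 8.40, 3.30 and 4.63 CPM in CD and 2.36, 2.13, 1.95, 2.45 and 2.26 in TDD (log2 −0.95 ± 0.29, q = 0.0327). CD mouse 3 was the highest of these and CD mouse 2 lay among the TDD mice. That call was lost without CD mouse 3 (q = 0.128, the highest), CD mouse 5 or any 1 of TDD mice 2 to 5, and without the 4 libraries with Alb (q = 0.127). Ces2e, the leading gene, differed by −0.15 on the log2 scale and did not pass, and neither did Ces2c (−0.08 ± 0.21).

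**Figure D2:**
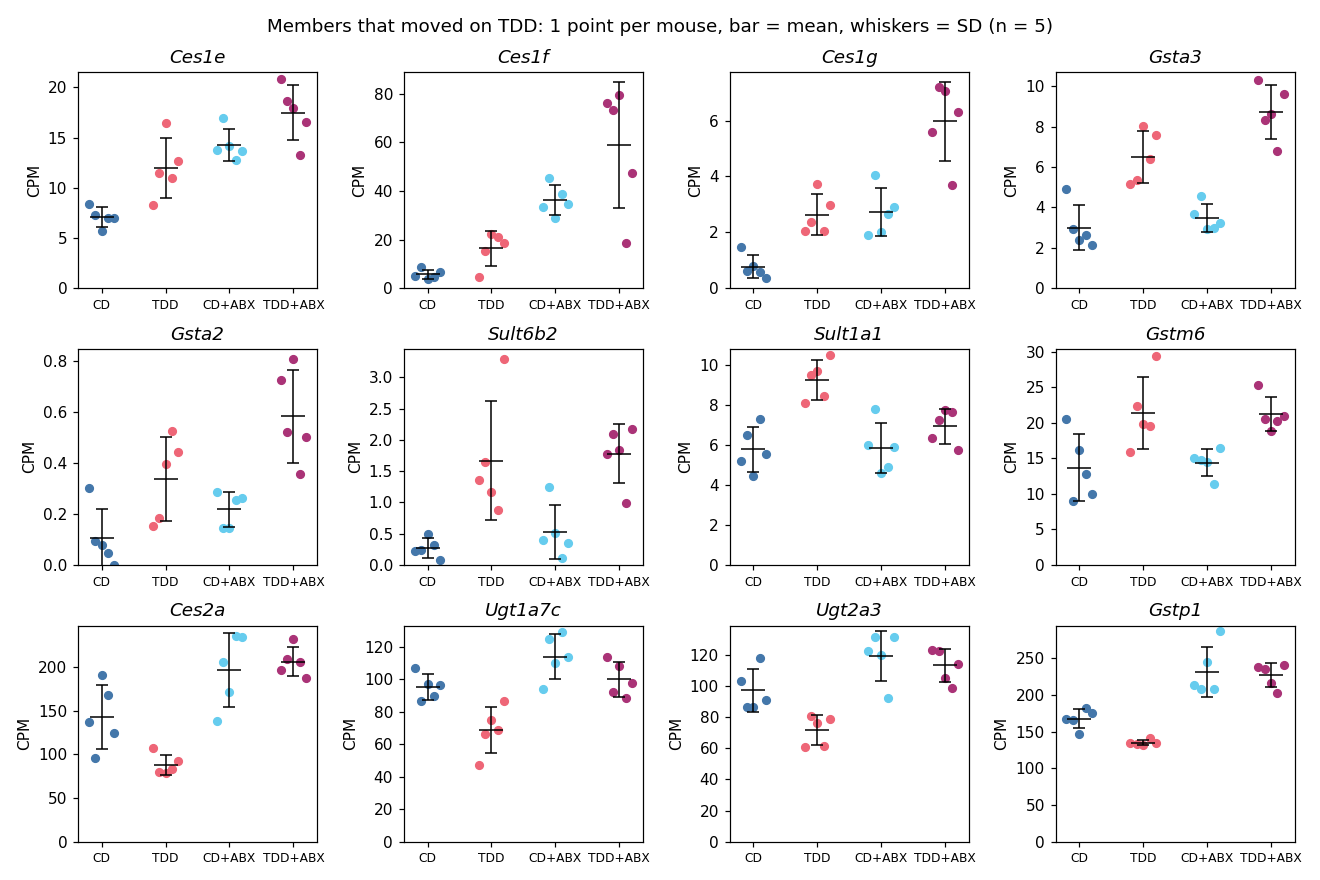
Expression of 12 members in CPM (linear axes from 0), 1 point a mouse, in the 4 groups, with bars for mean ± SD (n = 5) cut at 0 where they would pass below it. Ces1g, Gsta3, Sult6b2 and Sult1a1 show every TDD mouse above every CD mouse, while Ugt2a3 and Gstp1 show every TDD mouse below every CD mouse.

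Glutathione transferases of the alpha class, which detoxify lipid peroxides and electrophiles, gave 2 of 4 members that passed in TDD, Gsta3 and Gsta2, both higher. All 4 had a log2 change above 0, with a median of 0.89, beside 8590 of 16306 genes above 0 over all tested. Gsta3 stood at 4.90, 2.93, 2.39, 2.62 and 2.13 CPM in CD and 5.14, 5.36, 8.04, 6.39 and 7.60 in TDD. The groups did not overlap, although CD mouse 1 came close to the lowest TDD mouse, and the difference was 2.18-fold (log2 1.13 ± 0.20, q = 0.00113). Gsta2 was near the detection limit, at 0.303, 0.0931, 0.0798, 0.0459 and 0 CPM in CD and 0.151, 0.183, 0.394, 0.523 and 0.442 in TDD. It reached 10 counts in 1 CD library and 3 TDD libraries, and CD mouse 1 lay within the TDD range (log2 1.76 ± 0.55, q = 0.0389). That call was lost without any 1 of CD mice 2 to 5 or TDD mice 3 to 5 (q up to 0.0885, without CD mouse 4) and without the 4 libraries with Alb (1.28, q = 0.276). Gsta1, the most abundant of the class, gave 72.0, 15.7, 71.8, 27.8 and 27.4 CPM in CD and 51.8, 63.7, 50.7, 50.5 and 122 in TDD. It was spread widely within CD and did not pass (log2 0.66 ± 0.35, q = 0.234), and neither did Gsta4 (0.35 ± 0.22, q = 0.312).

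Mu-class transferases, which lie together on chromosome 3, had log2 changes above 0 for 7 of 7 genes, with a median of 0.28, and 1 passed. Over all genes tested, 8590 of 16306 were above 0. Summed over the class, the groups overlapped, at 95.1 to 177 CPM in CD and 115 to 203 in TDD. Gstm6 had 20.6, 8.93, 16.2, 12.8 and 10 CPM in CD and 15.9, 22.3, 19.8, 19.5 and 29.4 in TDD. CD mouse 1 was higher than 3 of the TDD mice (log2 0.65 ± 0.19, q = 0.0295). It no longer passed when CD mouse 2, 4 or 5, or TDD mouse 2 or 5, was left out (0.0953 at most, without TDD mouse 5) and without the 4 libraries with Alb (0.49, q = 0.211). The pi-class Gstp1, which acts on many electrophiles and is abundant in epithelia, fell instead. It was at 168, 166, 147, 182 and 176 CPM in CD and 135, 133, 132, 141 and 134 in TDD. The groups did not overlap and the change was small, 1.24-fold lower (log2 −0.32 ± 0.08, q = 0.0146, and −0.34 with q = 0.0611 without the 4 libraries with Alb). Gstk1, a kappa-class transferase of mitochondria and peroxisomes, had a median of 28.4 CPM in CD (17.8 to 34.5) and 22.2 in TDD (15 to 23.6), with q = 0.0469. Leaving out single mice removed this call in 13 of 20 fits, with 7 of those mice from CD and TDD and 6 from the ABX groups, and q was highest without CD mouse 3 (0.137). It was also lost without the 4 libraries with Alb (q = 0.168).

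Sulfotransferases gave 2 higher and no lower members of 8 tested. Sult6b2, whose substrate is not well known, was at 0.220, 0.233, 0.499, 0.321 and 0.0842 CPM in CD and 1.36, 1.65, 1.16, 0.881 and 3.30 in TDD. The groups did not overlap, and the 6.09-fold difference (log2 2.61 ± 0.51, q = 0.00228) was the largest of any member in this comparison, at a low level: 3 of the CD libraries and all 5 TDD libraries reached 10 counts. Sult1a1, the main phenol sulfotransferase, stood at 5.18, 6.47, 4.43, 7.30 and 5.54 CPM in CD and 8.08, 9.49, 9.71, 8.45 and 10.5 in TDD. Every TDD mouse was above every CD mouse, by 1.60-fold on average (log2 0.68 ± 0.15, q = 0.00444). The abundant Sult1b1 differed by −0.25 on the log2 scale and did not pass (q = 0.116).

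Glucuronosyltransferases gave 1 higher and 2 lower of 12 tested, with a median log2 change of −0.23. Ugt1a7c lies in the Ugt1a locus on chromosome 1, where each gene has its own first exon and shares the exons downstream. It was at 107, 86.4, 97.0, 90 and 96.7 CPM in CD and 47.2, 66.5, 74.8, 68.6 and 86.7 in TDD. Only the highest TDD mouse reached the CD range (log2 −0.47 ± 0.12, q = 0.0138). Summed over the Ugt1a members, which share sequence, the groups overlapped, at 280 to 360 CPM in CD and 280 to 335 in TDD. Ugt2a3, an enzyme of the intestine and liver that takes bile acids, had 103, 86.6, 86.5, 118 and 90.9 CPM in CD and 60.9, 80.8, 76.0, 61.5 and 78.5 in TDD. The groups did not overlap (log2 −0.44 ± 0.11, q = 0.0124, and −0.43 with q = 0.0795 without the 4 libraries with Alb). Ugt2b35 was the member that rose, from a median of 20.4 CPM in CD (16.9 to 25.4) to 25.4 in TDD (23.1 to 29.3), with log2 0.35 ± 0.11 and q = 0.0382. It no longer passed when any 1 of CD mice 2 to 5, TDD mice 2, 3 and 5, CD+ABX mouse 3 and TDD+ABX mouse 5 was left out (0.124 at most, without CD mouse 5) and without the 4 libraries with Alb (q = 0.131). Ugt2b34 and Ugt1a1, the highest of the family, differed by 0.08 and −0.02 and did not pass.

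**Figure D3:**
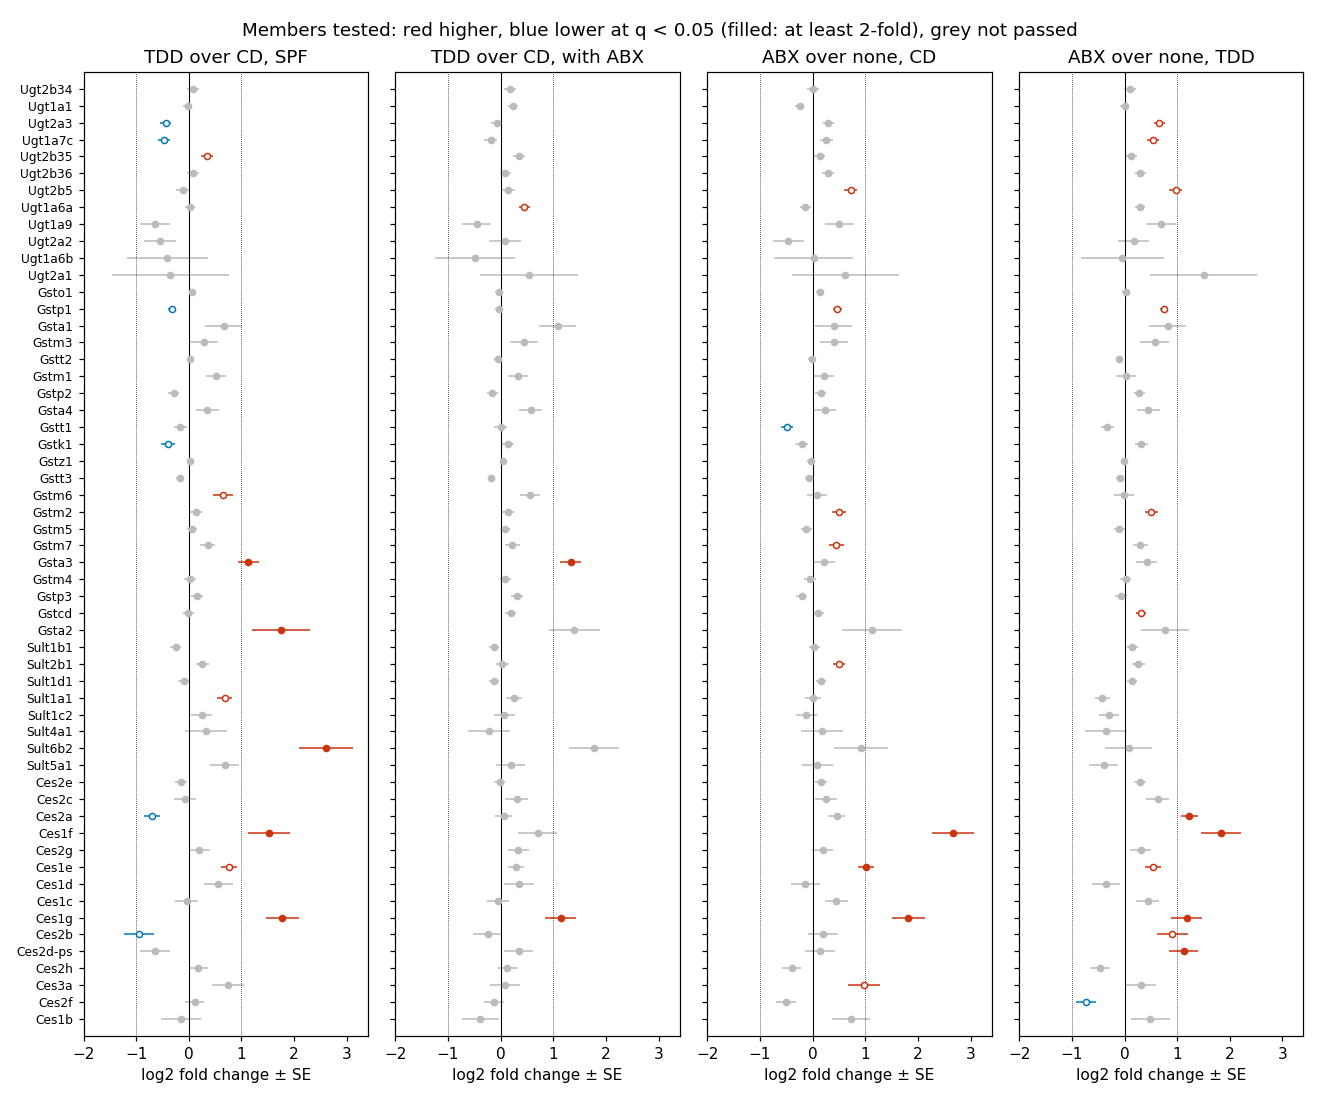
Log2 fold changes ± SE of the 56 tested members in the 4 comparisons, red for higher and blue for lower at q under 0.05, filled where the change was at least 2-fold, and grey where the test was not passed. The diet comparison in SPF mice shows 9 red and 6 blue genes, that in ABX-treated mice 3 red, and the ABX comparisons 9 red and 1 blue on CD and 12 red and 1 blue on TDD.

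The same diets were then compared in mice on antibiotics. Here 3 members were higher in TDD+ABX than in CD+ABX and none lower, against 0.626% of all genes higher and 1.02% lower. Gsta3 and Ces1g passed the 2-fold limit as well, against 0.307% of all genes in either direction. Without the 4 libraries with Alb, 2 members were higher, and 1 was when any of CD+ABX mice 3 and 5 and TDD+ABX mice 2 and 3 was missing. The members' median log2 change was 0.13, with 12 at an unadjusted p under 0.05, and the diet groups did not overlap for 7 members, all higher in TDD+ABX, against 4.78% of all genes. Gsta3 was at 3.66, 4.58, 2.93, 2.98 and 3.24 CPM in CD+ABX and 10.3, 8.33, 8.62, 6.79 and 9.60 in TDD+ABX. The groups were far apart, with a 2.51-fold difference (log2 1.33 ± 0.20, q = 0.00297), beside the 2.18-fold in SPF mice. The other alpha-class genes did not pass here, with Gsta1 at 1.08 ± 0.35 (q = 0.146), Gsta2 at 1.40 ± 0.48 (q = 0.161) and Gsta4 at 0.57 ± 0.22 (q = 0.216), but for all 4 genes every TDD+ABX mouse was above every CD+ABX mouse. For Gsta1 these values were 61.9, 56.2, 47.1, 47.7 and 70.5 CPM in CD+ABX and 153, 95.3, 134, 90.3 and 125 in TDD+ABX. In Gm3776, which shares most of its sequence, the diet differences were 0.81 (q = 0.159) in SPF mice and 1.12 (q = 0.147) in ABX-treated mice.

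Ces1g was at 1.92, 4.05, 2.01, 2.67 and 2.90 CPM in CD+ABX and 5.60, 7.21, 7.05, 3.70 and 6.30 in TDD+ABX. In each group 1 mouse lay inside the range of the other, and q was at the limit (log2 1.14 ± 0.29, q = 0.0494). Leaving out single mice removed this call in 14 of 20 fits, with the highest q when CD+ABX mouse 3 was missing (0.129), and without the 4 libraries with Alb (1.24, q = 0.112). For 13 of those mice the count of members past both limits was 1 in place of 2: CD mice 3 and 4, TDD mice 2 to 4, CD+ABX mice 1, 3, 4 and 5 and TDD+ABX mice 1, 2, 3 and 5. Ugt1a6a, which conjugates planar phenols, was the third member that passed. Its values were 9.79, 8.39, 7.86, 10.1 and 8.18 CPM in CD+ABX and 10.3, 12.1, 14.0, 12.9 and 11.4 in TDD+ABX. The groups did not overlap but nearly touched (log2 0.45 ± 0.10, q = 0.0293), and in SPF mice the difference was 0.02 (q = 0.941). It no longer passed when any 1 of CD+ABX mice 2, 3 and 5 and TDD+ABX mice 2 to 4 was left out (0.0806 at most, without TDD+ABX mouse 3) and without the 4 libraries with Alb (q = 0.0636). Sult6b2 was at 0.397, 1.25, 0.512, 0.117 and 0.358 CPM in CD+ABX and 1.78, 2.10, 1.84, 0.995 and 2.18 in TDD+ABX, with q = 0.0656 (log2 1.77 ± 0.48). CD+ABX mouse 2 and TDD+ABX mouse 4 each lay inside the range of the other group.

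Whether the diet effect differed between SPF and ABX-treated mice was tested directly, as the diet by ABX interaction. None of the 56 members passed in edgeR's quasi-likelihood test, DESeq2, limma-voom or limma on TPM, while 7 had an unadjusted p under 0.05, and 0.0368% of all genes passed. The 3 smallest p-values were those of Ces2a, Ugt1a6a and Gstk1. Ces2a fell by 0.70 with TDD in SPF mice and differed by 0.06 ± 0.16 in ABX-treated mice, a difference of 0.77 ± 0.23 between these effects (q = 0.258). For Ugt1a6a the difference was 0.44 ± 0.14 (q = 0.319) and for Gstk1 0.53 ± 0.18 (q = 0.339). The members that fell with TDD in SPF mice are thus not shown to respond differently in ABX-treated mice, where Gstp1 differed by −0.03 ± 0.08, Ugt2a3 by −0.08 ± 0.11 and Ugt1a7c by −0.19 ± 0.12.

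The effect of antibiotics was compared within each diet. These comparisons share their SPF mice with the diet comparison, the CD mice in one case and the TDD mice in the other, so their values are not independent of it. On CD, 9 members were higher and 1 lower with ABX, against 5.26% and 7.37% of all genes, and Ces1f, Ces1g and Ces1e passed the 2-fold limit as well, against 2.25%. On TDD, 12 were higher and 1 lower, against 7.14% and 8.22%, and Ces1f, Ces2a, Ces1g and Ces2d-ps passed the 2-fold limit as well, against 1.63%. Without the 4 libraries with Alb, 6 were higher on CD and 9 on TDD, and none was lower. Without CD mouse 2 the counts were 8 higher and 3 lower on CD and 17 higher and 2 lower on TDD, and without CD mouse 3 there were 3 lower on TDD. Leaving out CD mouse 4, TDD mouse 1 or CD+ABX mouse 2 gave 2 lower on TDD, and leaving out TDD+ABX mouse 5 gave 2 lower on CD. With limma on log2(TPM + 1) or log2(TPM + 0.1), 21 were higher and 1 lower on TDD. Members whose groups did not overlap numbered 6 higher and none lower on CD, against 9.74% of all genes, and 11 higher and 3 lower on TDD, against 11.0%. The median log2 change of the members was 0.17 on CD and 0.29 on TDD, against −0.005 and −0.03 over all genes.

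Of 6 Ces1 genes, Ces1e, Ces1f and Ces1g rose with antibiotics on each diet, Ces1f the most of all members tested, and Ces1b, Ces1c and Ces1d did not pass on either. Ces1f was at 33.5, 45.2, 28.9, 38.9 and 34.8 CPM in CD+ABX and 76.0, 73.4, 79.6, 18.5 and 47.3 in TDD+ABX. All CD+ABX mice were far above the CD mice, 6.34-fold on average (log2 2.66 ± 0.40, q = 0.000608), while in the TDD+ABX group mouse 4 stayed within the range of TDD (3.59-fold, log2 1.84 ± 0.38, q = 0.00485). Ces1g was 3.53-fold higher with ABX on CD (log2 1.82 ± 0.31, q = 0.00111) and 2.26-fold higher on TDD (1.18 ± 0.29, q = 0.0113, and 1.16 with q = 0.0560 without the 4 libraries with Alb). Ces1e stood at 13.8, 17.0, 14.2, 12.8 and 13.7 CPM in CD+ABX and 20.8, 18.7, 18.0, 13.3 and 16.6 in TDD+ABX. It was 2.02-fold higher on CD with no overlap (log2 1.02 ± 0.15, q = 0.000447) and 1.45-fold higher on TDD, where the groups overlapped (0.54 ± 0.15, q = 0.0202). The call on TDD was lost without TDD+ABX mouse 1 (q = 0.0589) and without the 4 libraries with Alb (q = 0.0847). Summed over the cluster, mean expression was 25.2 CPM in CD, 47.0 in TDD, 64.9 in CD+ABX and 96.2 in TDD+ABX. The log2 differences of Ces1d were −0.14 ± 0.28 on CD and −0.35 ± 0.27 on TDD, those of Ces1b 0.73 ± 0.36 and 0.49 ± 0.37, and those of Ces1c 0.45 ± 0.22 and 0.44 ± 0.22.

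**Figure D4:**
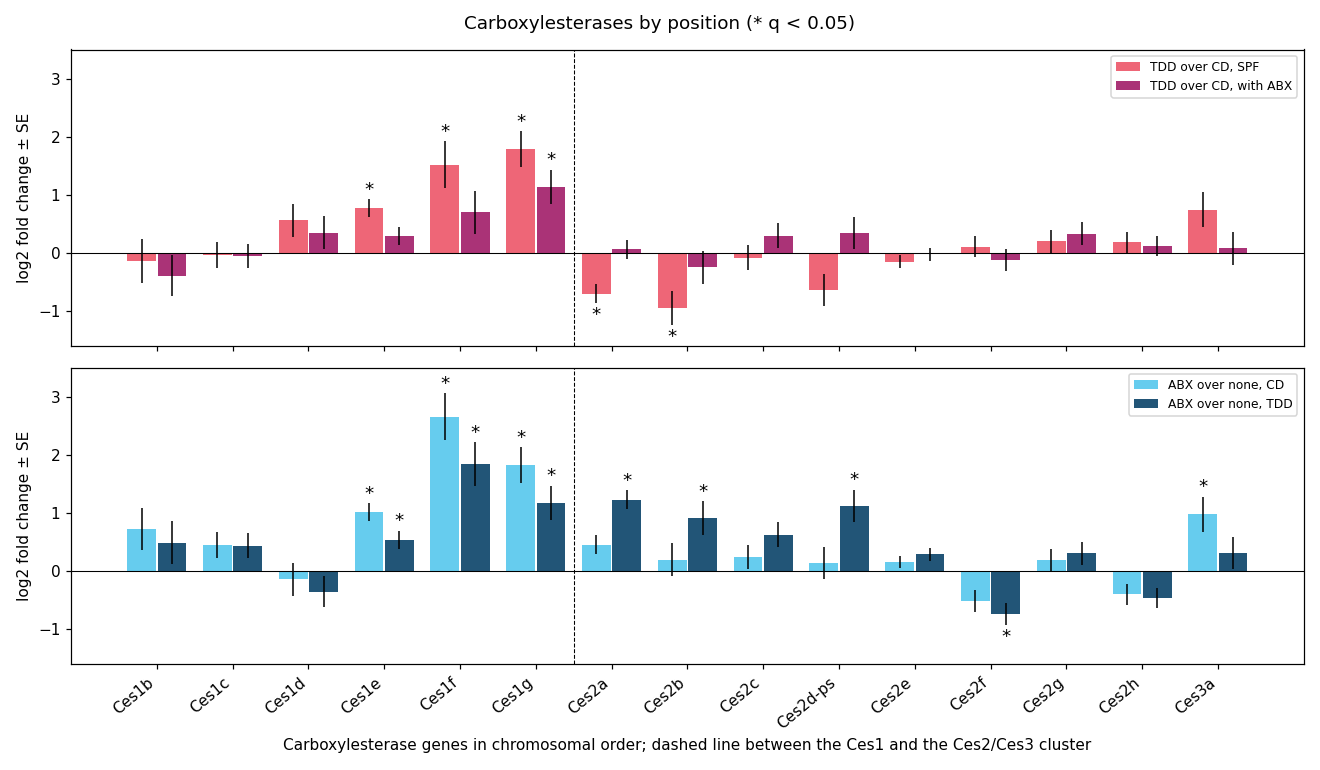
Log2 fold change ± SE of the 15 tested Ces genes in their order along chromosome 8, in the 4 comparisons, with an asterisk at q under 0.05. Ces1e, Ces1f and Ces1g rise with TDD in SPF mice and with ABX on both diets, while Ces2a and Ces2b fall with TDD in SPF mice and rise with ABX on TDD.

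Among Ces2 genes, none passed with ABX on CD, and on TDD 3 rose and 1 fell. Ces2a was at 138, 206, 171, 236 and 235 CPM in CD+ABX and 197, 209, 232, 206 and 187 in TDD+ABX. On TDD every ABX mouse was above every SPF mouse (2.34-fold, log2 1.23 ± 0.16, q = 0.00028), and on CD the groups overlapped (0.46 ± 0.16, q = 0.069). Of the 8 Ces2 genes, 4 lay apart and higher with ABX on TDD and 2 apart and lower, against 11.0% of all genes apart in either direction. Among the 4 were Ces2e (953 to 1140 CPM in TDD, 1177 to 1279 in TDD+ABX) and Ces2c (196 to 263 and 294 to 395), which did not pass. Ces2b ran from 2.57 to 6.02 CPM in TDD+ABX and was higher there than in TDD (0.91 ± 0.29, q = 0.0401), a call lost without any TDD mouse or TDD+ABX mouse 1, 2 or 3 (q up to 0.113, without TDD+ABX mouse 3) and without the 4 libraries with Alb (q = 0.124). Ces2d-ps, a pseudogene that shares 59.8% of its 31-base words with Ces2c, rose on TDD (1.12 ± 0.28, q = 0.0135). Ces2f fell on TDD, from 1.51, 1.60, 1.76, 2.50 and 1.99 CPM to 1.30, 1.12, 1.16, 1.35 and 0.694. The groups did not overlap (−0.73 ± 0.19, q = 0.0147, and −0.50 with q = 0.126 without the 4 libraries with Alb). Ces3a, at under 1 CPM in every mouse, rose on CD (0.98 ± 0.30, q = 0.036). It no longer passed when any 1 of CD mice 1, 3, 4 and 5 and CD+ABX mice 1 and 2 was left out (0.0916 at most, without CD mouse 3) and without the 4 libraries with Alb (q = 0.203).

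In the Gst family, Gstp1 rose with ABX on both diets. It was at 214, 208, 245, 208 and 287 CPM in CD+ABX and 238, 236, 217, 203 and 241 in TDD+ABX. Neither group overlapped with its SPF group, at 1.38-fold on CD (log2 0.47 ± 0.08, q = 0.00141) and 1.68-fold on TDD (0.75 ± 0.08, q = 0.000215). Gstm2, a mu-class enzyme, stood at 12.7, 15, 10.9, 11.3 and 12.7 CPM in CD and at 18.3, 18.3, 18.4, 17.1 and 16.2 in CD+ABX. It was higher with ABX by 0.50 ± 0.13 on CD (q = 0.0141, and 0.0728 without the 4 libraries with Alb) and 0.51 ± 0.13 on TDD (q = 0.0124), with no overlap on either diet. Gstt1, a theta-class enzyme that acts on small halogenated compounds, was the member that fell on CD, from 43.1, 26.6, 43.1, 35.3 and 31.3 CPM to 27.6, 24.0, 25.8, 22.2 and 27.7. CD mouse 2 lay within the ABX range (−0.49 ± 0.12, q = 0.0116, and 0.0615 without the 4 libraries with Alb), and on TDD the difference was −0.33 (q = 0.0671). Gstm7 on CD (0.45 ± 0.14, q = 0.0468) and Gstcd on TDD (0.31 ± 0.10, q = 0.0472) passed in only 6 and 10 of 20 fits with single mice left out, and q reached 0.105 in each case, without CD mouse 4 for Gstm7 and without TDD mouse 1 for Gstcd. Gstm7 also did not pass without the 4 libraries with Alb (q = 0.128). Gsta3 did not pass on either diet, at 0.22 (q = 0.549) and 0.42 (q = 0.152).

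In the Ugt family, Ugt2b5 was at 7.38, 8.86, 7.50, 7.16 and 6.08 CPM in CD, 5.37, 6.28, 7.46, 8.20 and 6.93 in TDD, 11.0, 12.5, 10.9, 12 and 14.4 in CD+ABX and 15.1, 13.2, 16.2, 10.2 and 12.6 in TDD+ABX. All 10 ABX mice were above all 10 SPF mice, by 0.72 ± 0.13 on CD (q = 0.00188) and 0.97 ± 0.13 on TDD (q = 0.000322). Ugt2a3 stood at 122, 131, 120, 92.4 and 131 CPM in CD+ABX and 123, 122, 105, 98.8 and 114 in TDD+ABX. It rose on TDD with no overlap (0.66 ± 0.11, q = 0.00138) and did not pass on CD (0.30, q = 0.0831). Ugt1a7c had 94.0, 125, 110, 129 and 114 CPM in CD+ABX and 114, 92.3, 108, 88.3 and 97.6 in TDD+ABX. It also rose on TDD with no overlap (0.54 ± 0.12, q = 0.00789) and not on CD (0.26, q = 0.181). Of the sulfotransferases 1 passed, Sult2b1 on CD (0.50 ± 0.12, q = 0.0112), where CD+ABX mouse 5 was the highest. Sult1a1 was lower with ABX on TDD without overlap and did not pass (−0.42, q = 0.0573).

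Other features of the tissue moved with antibiotics. Of the distal ileum markers, the bile acid transporter Slc10a2 was higher with ABX by 4.07 on the log2 scale on CD (q = 9.83e-05) and 2.65 on TDD (q = 0.0014), and the bile acid binding protein Fabp6 by 5.14 (q = 0.00585) and 3.92 (q = 0.0198). Fgf15, the hormone that ileal bile acids induce, was lower with TDD in SPF mice by 3.03 (q = 0.00392) and higher with ABX on TDD by 2.38 (q = 0.0163), while on CD its mean was 73.8 CPM without ABX and 39.9 with it (−0.89 ± 0.58, q = 0.361). Of 7 enterocyte markers, 1 rose and 2 fell with ABX on each diet: the fatty acid binding protein Fabp2 by 1.20 on CD (q = 0.000543) and 1.22 on TDD (q = 0.000556), the disaccharidase Sis by −1.03 (q = 0.00313) and −0.74 (q = 0.0204), and the apolipoprotein Apoa4 by −1.61 (q = 0.00593) and −1.13 (q = 0.0336). None of the 7 passed with diet, by edgeR, in SPF or ABX-treated mice, where 0 and 2 had an unadjusted p under 0.05. Summed levels of 3 T cell markers were 20.1 to 61.9 CPM in CD and 18.1 to 28.7 in TDD, against 12.2 to 15.8 in CD+ABX and 11.1 to 19.0 in TDD+ABX. Those of 4 B cell markers ran from 1.70 to 114 CPM and varied by mouse. No marker of these lists was at 0 in every library. The part of these shifts in the members' changes was not tested.

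Around these enzymes, 60 other genes of the same pathways were examined, of which 55 were tested. In the diet comparison 3 were higher and 6 lower in SPF mice, and 1 higher and 1 lower in ABX-treated mice. These are 5.45% and 10.9% of the list in SPF mice, beside 6.65% and 7.71% of all genes, and 1.82% each in ABX-treated mice, beside 0.626% and 1.02%. With ABX, 7 were higher and 5 lower on CD (12.7% and 9.09%, beside 5.26% and 7.37%) and 12 higher and 2 lower on TDD (21.8% and 3.64%, beside 7.14% and 8.22%). Of 11 sensors and regulators, 2 rose with TDD in SPF mice. Nr1i3, the xenobiotic receptor CAR, went from 73.7, 55.4, 66.2, 67.0 and 58.2 CPM to 86.5, 95.1, 90.9, 79.9 and 107 (0.52 ± 0.11, q = 0.00304). Ppara, the fatty acid receptor that drives lipid oxidation, went from 32.3, 18.7, 27.1, 33.2 and 21.9 CPM to 47.3, 33.7, 41.9, 35.3 and 43.4 (0.60 ± 0.14, q = 0.0066). Neither gene's groups overlapped. The aryl hydrocarbon receptor gene Ahr differed by 0.05 ± 0.09 (q = 0.757), the pregnane X receptor gene Nr1i2 by 0.16 ± 0.12 (q = 0.414) and Nfe2l2, which encodes Nrf2, by −0.06 ± 0.07 (q = 0.609).

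Of 10 genes known to respond to these sensors, 1 rose and 2 fell with TDD in SPF mice. Nqo1, a quinone reductase under Nrf2 and the aryl hydrocarbon receptor, rose from a mean of 14.5 ± 1.98 CPM (SD, n = 5) to 19.8 ± 3.09 (0.45 ± 0.11, q = 0.00946, and 0.0955 without the 4 libraries with Alb). Ahrr, the repressor that the aryl hydrocarbon receptor induces, fell from 4.11 ± 0.593 to 2.65 ± 0.399 CPM (−0.63 ± 0.19, q = 0.0333), with no overlap. Tiparp, another of its targets, fell from 40.4 ± 4.71 to 32.6 ± 1.06 CPM (−0.31 ± 0.09, q = 0.0219). Ahrr no longer passed when any 1 of CD mice 2 and 3 and TDD mice 2 to 4 was left out (0.0824 at most, without TDD mouse 3), Tiparp when CD mouse 1 was (q = 0.0617), and both without the 4 libraries with Alb (0.0715 and 0.0791). Cyp1a1, the classic target, was under 1 CPM in every mouse and did not pass with diet (q = 0.161 in SPF mice). Cyp1b1, a further gene of the list, was not lower in TDD, at 5.24 ± 2.18 CPM in CD and 5.87 ± 0.454 in TDD, and did not pass either.

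Among other hydrolases, 3 of 6 fell with TDD in SPF mice. Pon3, a lactonase, fell from 27.1 ± 5.35 to 17.2 ± 0.98 CPM (−0.66 ± 0.11, q = 0.00044). Bche, butyrylcholinesterase, fell from 200 ± 20.6 to 166 ± 15.7 CPM (−0.27 ± 0.07, q = 0.0185), a call lost without CD mouse 1 (q = 0.055) and without the 4 libraries with Alb (q = 0.107). Aadac, an arylacetamide deacetylase, fell from 81.3 ± 11.1 to 55.5 ± 14.5 CPM (−0.55 ± 0.18, q = 0.0489) and passed in only 8 of 20 fits with single mice left out (q up to 0.116, without TDD mouse 4) and not without the 4 libraries with Alb (q = 0.0866). The arsenic methyltransferase As3mt, a conjugating enzyme of another kind, was lower with TDD in both settings, by 0.42 in SPF mice (49.7 ± 4.05 to 37.3 ± 2.26 CPM, q = 0.000203) and by 0.35 in ABX-treated mice (54.3 ± 3.01 to 42.6 ± 2.47 CPM, q = 0.00682).

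Few genes that supply the donors passed with diet, though some shifted without passing. None of 2 UDP-glucuronate genes or 6 sulfate donor genes passed in any comparison. In SPF mice, 5 of the 6 sulfate donor genes had a log2 change with TDD above 0. The mean of Slc26a2 was 270 ± 84.2 CPM in CD and 419 ± 92.0 in TDD, with overlap. Of 8 genes of glutathione supply and turnover, 1 passed with diet: Gclc, the rate-limiting enzyme of glutathione synthesis, was at 75.8, 79.2, 69.6, 68.5 and 91.9 CPM in CD+ABX and 110, 144, 111, 87.9 and 144 in TDD+ABX. TDD+ABX mouse 4 lay inside the CD+ABX range (0.63 ± 0.12, q = 0.00916, and 0.0697 without the 4 libraries with Alb). With ABX, 3 of the 8 glutathione genes were higher on CD and 4 on TDD, and of the 3 microsomal glutathione transferases 2 were higher on CD and all 3 on TDD. Over all genes, 5.26% were higher on CD and 7.14% on TDD. Means of Mgst1, Mgst2 and Mgst3 were 145, 150 and 169 CPM in CD and 198, 176 and 172 in CD+ABX. On the deficient diet they were 153, 148 and 155 CPM in TDD and 216, 179 and 177 in TDD+ABX.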

How the data were processed

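RNA of the terminal ileum of 20 mice was sequenced after poly-A selection, 5 mice in each of 4 groups. The authors quantified reads with kallisto 0.44.0 against GRCm38 transcripts, and deposited a table of gene-level estimated counts and, per library, transcript tables with TPM and estimated counts. The transcriptome release is not given in the sources used here. Of 113193 transcripts, 111362 (98.4%) matched GENCODE M21, which gave gene symbols and positions. Gene counts of Gstp1, Gstp2 and Gstp3 were 2 times the sum of their transcripts, which touches their CPM but not their fold changes or TPM.

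Estimated counts were rounded and tested with edgeR 4.0.16 (R 4.3.3; quasi-likelihood, robust, TMM scaling) in 1 fit of all 4 groups, over the 16306 genes that reached 0.5 CPM in 1 library or more. q is the Benjamini-Hochberg adjusted p, a member passed at q under 0.05, the 2-fold limit was applied beside it, and SE is the log2 fold change divided by the square root of its F value. CPM use TMM-scaled library sizes. Pathway and marker lists and the members were chosen with earlier results of these data known. Genes were named if they passed with diet, were among the 15 with the largest absolute log2 fold change of those that passed with ABX, had 1 of the 3 highest TPM of their family, or had 1 of the 3 smallest interaction p-values. Pathway genes were named if they passed with diet. Ahr, Nr1i2, Nfe2l2, Cyp1a1, Cyp1b1, Slc26a2, Mgst1, Mgst2 and Mgst3 were chosen after their values were seen. So were further members of the Ces1, Ces2 and alpha-class clusters. Alternatives were limma 3.58.1 on voom weights and on log2(TPM + 1) or log2(TPM + 0.1), DESeq2 1.42.0, other scalings and filters, 2 groups only, a replicate block and each mouse left out. The labels give separate mice of unstated cages and litters. The depth of 36676963 to 58662617 counts limits genes under 1 CPM most. Code was tested on simulated data. Words of 31 bases were compared between GENCODE M21 transcripts, and promoters came from RefSeq.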

Additional observations from a re-analysis of the deposited data

Results flagged for a closer look

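In 43 named genes, each of 4 groups of 5 mice was searched for a mouse far from the others, its gap to the nearest being more than 0.71 of the group's range (Dixon's limit at 95%). Of 172 groups, 8 had such a mouse, and at this limit about 5% of groups would by chance.

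Among the members, Gsta3 had 4.90 CPM in CD mouse 1 and 2.13 to 2.93 in the other 4. Ugt2a3 had 92.4 CPM in CD+ABX mouse 4 and 120 to 131 in the others. Sult2b1 had 225 CPM in CD+ABX mouse 5 and 133 to 153 in the others. Gstm7 had 8.39 CPM in CD+ABX mouse 4 and 9.92 to 10.4 in the others. Gsta1 had 122 CPM in TDD mouse 5 and 50.5 to 63.7 in the others. Sult1d1 had 224 CPM in TDD+ABX mouse 4 and 255 to 260 in the others. Ces2e had 1140 CPM in TDD mouse 1 and 953 to 986 in the others. Of the pathway genes, Pon3 had 16.6 CPM in TDD+ABX mouse 3 and 15.1 to 15.3 in the others.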

How the results depend on the processing

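The number of members past both limits was 5 for diet in SPF mice, 2 for diet in ABX-treated mice, 3 for ABX on CD, 4 for ABX on TDD and 0 for the interaction. With DESeq2 these were 5, 3, 3, 4 and 0. Without the 2-fold limit they were 15, 3, 10 and 13. With limma on log2(TPM + 1) they were 2, 1, 1 and 2, and with limma on log2(TPM + 0.1) 5, 3, 2 and 5, and the cause was not tested. At q under 0.05 alone, limma on TPM gave 21 higher members for ABX on TDD with either pseudocount, against 12, and 6 were higher for diet in ABX-treated mice with only the 2 groups compared, against 3, where the replicate block gave 1. Lower members for ABX on TDD were 1, but 2 with DESeq2 or limma-voom and 4 with only the 2 groups compared, and for ABX on CD 2 with upper-quartile scaling, against 1. For diet in ABX-treated mice the count was 1 without the filter on low genes and 4 with only the 2 groups compared. Leaving out each mouse in turn gave 4 to 6, 1 to 3, 2 to 4, 4 to 6 and 0. An alternative chosen after seeing the data left out the 4 libraries with Alb over 1 CPM, which gave 3 for diet in SPF mice, a fit with fewer samples. Of 602 values of single named genes under the alternatives other than leaving out single mice, 529 kept their direction and side of the threshold, 73 kept their direction and no longer passed, and none changed direction. Of 1100 such values with a mouse left out, 118 no longer passed and none changed direction.

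Replicate numbers do not pair the mice. Deviations from the group means correlated between mice of the same number at −0.397 to 0.319 (median −0.0105, 30 pairs) and between mice of different number at −0.334 to 0.479 (median −0.0132, 120 pairs). With the replicate block, the count of members was 4 for diet in SPF mice, 1 for diet in ABX-treated mice, 4 for ABX on CD and 4 for ABX on TDD, and 9 calls of single genes did not pass, with q of 0.0510 to 0.1010.

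Depth limits genes such as Gsta2, Sult6b2 and Ces3a, which had under 10 counts in some libraries. Shared sequence limits Gsta1, Gsta2, Ces2d-ps and the Ugt1a genes. Intervals and q cover the spread between 5 mice a group in 1 experiment.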
